A study of Mus musculus with 18 samples.

Results

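The pyruvate dehydrogenase kinases Pdk1, Pdk2, Pdk3 and Pdk4 and the pyruvate dehydrogenase phosphatases Pdp1 and Pdp2 were taken by gene symbol from an RNA-seq count table of brown adipocytes, as 6 of its 20295 genes. All 6 passed the filter on low counts and were tested among 12156 genes. The cells were BAT-LgT, a single line of wild-type mouse brown preadipocytes that carries the SV40 large T antigen in every group and was differentiated with dexamethasone, 3-isobutyl-1-methylxanthine, T3 and insulin. On day 7, cells received for 3 h DMSO (Vehicle), 100 nM isoproterenol (ISO), which activates β-adrenergic receptors, or SR-3420, a ligand of the ATGL co-activator ABHD5. The same 3 treatments were also given after 1 h with inhibitors of the lipases ATGL (Atglistatin) and HSL (CAY10499), in groups named Lipase Inh. + Vehicle, + ISO and + SR-3420. The labels give 10 µM as the dose of SR-3420, the text of the study gives another dose, and which applies to these libraries was not settled. Each of the 6 groups held 3 samples, which the methods call independent experiments.

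The pyruvate dehydrogenase complex sits in mitochondria and turns pyruvate into acetyl-CoA, which commits carbon from glucose to oxidation or fat synthesis. The kinases phosphorylate the Pdha1 subunit and switch the complex off, and the phosphatases remove that phosphate and switch it on. Pdk4 is the isoform known to rise in fasting and when cells burn fatty acids, Pdk2 is found in most tissues, Pdk1 is known as a target of hypoxia-inducible factor, Pdp1 is the phosphatase stimulated by calcium, and Pdp2 is known to respond to fasting and insulin. Messenger RNA was measured here, so these data say nothing of the phosphorylation of the complex.

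The stretches of DNA just before the starts of Pdk4 and Pdp2, which had the largest changes, are shown first with that of Pdk2, which rose with ISO and did not pass the test with SR-3420, and that of Pdk1, which did not pass the test with ISO. They come from RefSeq (mouse build GRCm38.p6), which matched 5 of the 6 genes with 7 entries; Pdp1 had no entry. Each is the 250 bases before the annotated start, 5′ to 3′ on the gene's strand, and each occurred once in mm9, the build of the count table. Capitals mark matches, on either strand, to CCAAT, to ACGTG (the core of hypoxia response elements) or to TGACG (the core of the cAMP response element).

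Pdk4 (chr6:5496279-5496528, minus strand): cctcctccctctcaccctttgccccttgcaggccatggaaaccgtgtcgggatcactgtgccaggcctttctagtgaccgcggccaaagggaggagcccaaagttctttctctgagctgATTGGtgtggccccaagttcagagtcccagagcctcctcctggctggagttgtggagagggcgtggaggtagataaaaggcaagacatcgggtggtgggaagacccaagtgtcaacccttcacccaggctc
Pdp2 (chr8:104591222-104591471, plus strand): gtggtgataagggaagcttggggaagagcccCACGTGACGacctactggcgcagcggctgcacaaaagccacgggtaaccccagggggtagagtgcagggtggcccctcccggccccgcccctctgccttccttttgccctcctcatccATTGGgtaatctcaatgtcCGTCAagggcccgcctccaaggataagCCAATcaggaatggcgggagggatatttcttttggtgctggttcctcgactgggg
Pdk2 (chr11:95041372-95041621, minus strand): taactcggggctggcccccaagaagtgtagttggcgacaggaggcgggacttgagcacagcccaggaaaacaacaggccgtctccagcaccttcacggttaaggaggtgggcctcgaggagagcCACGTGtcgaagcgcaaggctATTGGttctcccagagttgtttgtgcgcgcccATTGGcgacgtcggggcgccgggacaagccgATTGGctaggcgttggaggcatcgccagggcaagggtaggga
Pdk1 (chr2:71872974-71873223, plus strand): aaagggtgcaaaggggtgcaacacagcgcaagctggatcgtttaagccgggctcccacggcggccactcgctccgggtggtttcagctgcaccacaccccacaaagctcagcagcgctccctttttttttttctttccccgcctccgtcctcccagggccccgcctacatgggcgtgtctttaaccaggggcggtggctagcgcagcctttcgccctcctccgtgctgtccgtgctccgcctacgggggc

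The Pdk4 window held 1 match, a CCAAT on the opposite strand at bases -131 to -127 from the start. The Pdp2 window held a CCAAT on each strand, TGACG at bases -215 to -211 and, on the opposite strand, at -82 to -78, and a CACGTG that reads as ACGTG on both strands and overlaps the distal TGACG. Pdk2 had 3 CCAAT matches, all on the opposite strand, and a CACGTG, whereas the Pdk1 window had none of the motifs searched. Over all 32851 promoter windows of this length, CCAAT occurred in 33.8%, TGACG in 17.8% and ACGTG in 16.6%. No match in these 4 windows was found to AGGTCA (14% of all windows), to the PPAR direct repeat, in which AGGTCA recurs after 1 base (0.0335%), to the ERR element TCAAGGTCA (0.387%), which also contains AGGTCA, to the FOXO element GTAAACA (3.17%) or to TGACGTCA (1.55%), which contains TGACG. These matches describe letters in a short window only.

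Total counts were between 10310447 and 21205032 in 17 libraries and 4263755 in Lipase Inh. + SR-3420 replicate 2, where Lars2 took 18.3% of all counts against 0.0397% to 0.121% elsewhere. Without that library the interaction of inhibitors with SR-3420 also passed for Pdk1 (0.41, edgeR adjusted p = 0.0416), and no member lost a call. Levels are given as CPM, counts scaled to a common library size after TMM scaling, which sets the bulk of genes level between libraries. The adipocyte markers Adipoq, Fabp4, Plin1, Pparg, Lpl and Cidec summed to between 18100 and 20500 CPM with Vehicle. The sum was between 23300 and 24700 CPM with ISO and between 30000 and 33600 CPM in Lipase Inh. + ISO, the highest group. Lpl was the largest part, at 7680 to 24900 CPM over all libraries. Pparg did not rise with the sum, at a mean of 537 CPM with Vehicle, 481 with ISO and 514 in Lipase Inh. + ISO. The part of the marker sum in the results below was not tested. Among the brown adipocyte markers, Ucp1 ranged from 1.39 to 788 CPM, whereas Dio2 had at most 6 counts in any library and Cox7a1 at most 2.47 CPM. Preadipocyte markers summed to between 154 and 256 CPM. The immune markers summed to at most 5.87 CPM, with Cd68 at 1.96 to 5.87 CPM and Ptprc at 0 counts in all libraries. The endothelial markers summed to at most 0.524 CPM and the muscle markers to at most 2.63 CPM. Scaling by total counts alone instead moved the median gene by -0.31 (log2) with ISO, by -0.16 with SR-3420 and by -0.23 with ISO under inhibitors, so changes below are relative to the bulk of genes. It lowered the share of higher calls among all calls from 51.7% to 19.9% with ISO, from 50.6% to 30.8% with SR-3420 and from 53.2% to 42.0% with inhibitors alone. Under inhibitors this share went from 51.0% to 27.8% with ISO and from 68.8% to 33.1% with SR-3420, and between the agents from 53.1% to 20.3% without and from 50.3% to 37.0% with inhibitors. In bulk samples, fewer cells of a type and less RNA per cell cannot be told apart.

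Among the kinases, Pdk4 (NM_013743; mm9 chr6:5433351-5446278, minus strand) had the largest responses. Its level was 552, 547 and 535 CPM in the 3 Vehicle libraries, 2853, 3033 and 2705 CPM with ISO, and 4650, 4646 and 4531 CPM with SR-3420. All ISO libraries thus lay above all Vehicle libraries, and all SR-3420 libraries above all ISO libraries. The mean was 545 ± 8.43 CPM (SD, n = 3) with Vehicle, 2863 ± 164 CPM with ISO and 4609 ± 67.9 CPM with SR-3420. This was a log2 fold change of 2.39 ± 0.10 (SE) with ISO (edgeR quasi-likelihood test, adjusted p = 1.10e-14) and of 3.08 ± 0.10 with SR-3420 (adjusted p = 8.69e-16). Pdk4 held rank 80 from the top of 12156 genes by log2 fold change with ISO and rank 21 with SR-3420.

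With the lipases inhibited, the 2 agents left Pdk4 on different sides of its baseline. Lipase Inh. + Vehicle libraries stood at 567, 548 and 637 CPM, Lipase Inh. + ISO libraries at 469, 385 and 545 CPM, and Lipase Inh. + SR-3420 libraries at 1114, 1068 and 1160 CPM. The ISO libraries lay below and the SR-3420 libraries above all Lipase Inh. + Vehicle libraries, without overlap. Pdk4 fell by 0.32 on the log2 scale with ISO (SE 0.09, edgeR adjusted p = 0.0044) and rose by 0.93 with SR-3420 (SE 0.09, adjusted p = 2.02e-06), which is rank 103 from the top. The effect of ISO was smaller with inhibitors than without (log2 fold change of the interaction -2.72 ± 0.13, edgeR adjusted p = 2.44e-12), and so was that of SR-3420 (-2.15 ± 0.13, adjusted p = 1.86e-10). Inhibitors alone gave 0.10 (95% confidence interval -0.09 to 0.29, edgeR adjusted p = 0.72). Pdk4 kept the same direction and call in each of these comparisons under every alternative tried. SR-3420 replicate 3 held the most Pdk4 reads, 86425 or 25 per counted base. The methods describe a limit of 1 read for each position and length, which at a single read length would allow fewer reads than this, so whether the limit was applied before counting, and what it did to the Pdk4 counts, is not known.

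**Figure D1:**
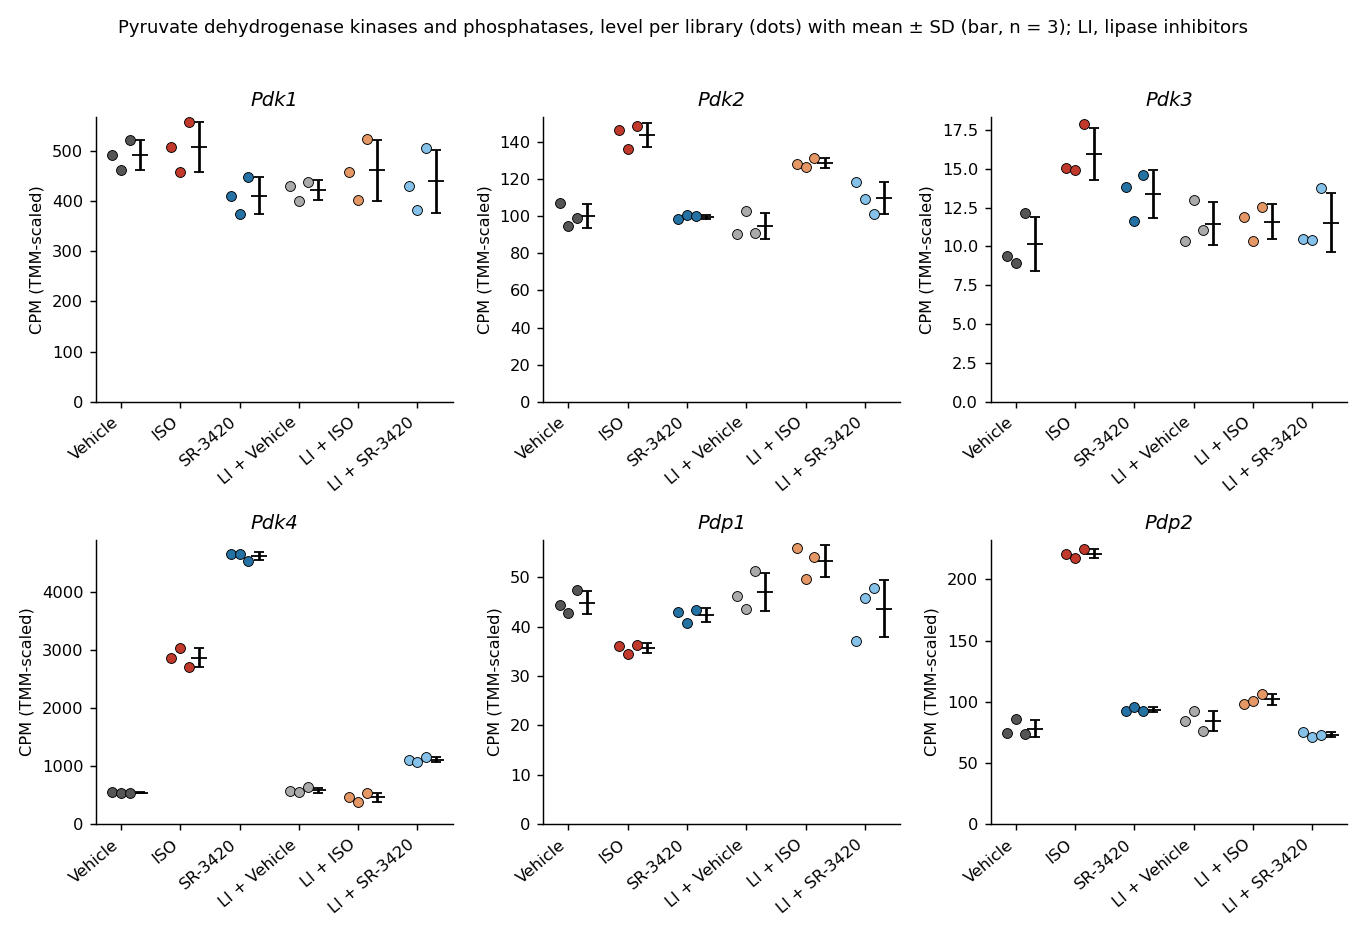
Level of each gene in every library in CPM (TMM-scaled, linear axes from 0), with 3 dots per group and the mean ± SD beside them; LI stands for lipase inhibitors. Pdk4 stands at 2705 CPM or more in all ISO and SR-3420 libraries without inhibitors and at 1160 CPM or less in all others, and Pdp2 is highest in the ISO libraries, at 218 to 225 CPM.

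Pdk1 (NM_172665; chr2:71711281-71741915, plus strand) had the narrowest relative range of the kinases, between 374 and 558 CPM over all 18 libraries. It stood at 492, 462 and 522 CPM with Vehicle, at 508, 457 and 558 CPM with ISO and at 411, 374 and 448 CPM with SR-3420. ISO libraries overlapped Vehicle libraries (log2 fold change 0.05, 95% confidence interval -0.16 to 0.26, edgeR adjusted p = 0.73), while SR-3420 libraries all lay below them. Pdk1 fell by 0.26 on the log2 scale with SR-3420 (SE 0.10, edgeR adjusted p = 0.0373), a call that was lost on leaving out Vehicle replicate 1 (adjusted p = 0.0744), Vehicle replicate 3 (0.114), SR-3420 replicate 1 (0.0811) or SR-3420 replicate 2 (0.158). With inhibitors it stood at 429, 400 and 439 CPM in Lipase Inh. + Vehicle, at 458, 403 and 524 CPM with ISO and at 431, 382 and 505 CPM with SR-3420. These 3 groups overlapped, and neither ISO (0.13, interval -0.08 to 0.34) nor SR-3420 (0.06, interval -0.15 to 0.27) passed the test. In the order of group means, from 508 CPM with ISO down to 411 CPM with SR-3420, every group overlapped the next.

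Pdk2 (NM_133667; chr11:94887572-94902685, minus strand) was higher with ISO, with or without inhibitors. Its levels were 107, 94.6 and 99.2 CPM with Vehicle and 146, 136 and 149 CPM with ISO, and 90.7, 103 and 91.0 CPM in Lipase Inh. + Vehicle against 128, 127 and 132 CPM in Lipase Inh. + ISO. No ISO library overlapped its Vehicle group. The log2 fold change was 0.52 ± 0.07 without inhibitors (edgeR adjusted p = 2.27e-06) and 0.44 ± 0.07 with them (adjusted p = 1.43e-05), and the difference between these was -0.08 (95% confidence interval -0.28 to 0.13, adjusted p = 0.60). With SR-3420, Pdk2 stood at 98.4, 101 and 100.2 CPM, within the range of the Vehicle libraries (log2 fold change -0.01, interval -0.16 to 0.14). In Lipase Inh. + SR-3420 it stood at 119, 109 and 101 CPM, overlapping Lipase Inh. + Vehicle (0.21, interval 0.06 to 0.36, edgeR adjusted p = 0.12).

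Pdk3 (NM_145630; chrX:91009955-91077434, minus strand) had the lowest level, between 8.96 and 17.9 CPM, from 39 to 279 reads per library. It was read at 9.42, 8.96 and 12.2 CPM with Vehicle, at 15.1, 14.9 and 17.9 CPM with ISO and at 13.8, 11.6 and 14.6 CPM with SR-3420. ISO libraries did not overlap Vehicle libraries, and SR-3420 libraries did. The log2 fold change was 0.65 ± 0.15 with ISO (edgeR adjusted p = 0.000817), which missed the threshold with total counts alone (adjusted p = 0.0584). It was 0.41 ± 0.15 with SR-3420 (edgeR adjusted p = 0.0247), a call that was lost without Vehicle replicate 1 (0.0917), Vehicle replicate 2 (0.103), SR-3420 replicate 1 (0.0657) or SR-3420 replicate 3 (0.108), with total counts alone (0.19) and with all libraries thinned to the smallest total (0.373). With inhibitors, the 3 groups lay between 10.3 and 13.7 CPM and overlapped, and the log2 fold change was 0.03 with ISO (interval -0.28 to 0.33) and 0.05 with SR-3420 (interval -0.27 to 0.37). The ISO effect was smaller with inhibitors (-0.62 ± 0.21, edgeR adjusted p = 0.0256). That call was lost, with adjusted p between 0.065 and 0.0696, without Vehicle replicate 1, Vehicle replicate 2, Lipase Inh. + Vehicle replicate 2, Lipase Inh. + ISO replicate 2 or ISO replicate 3, with total counts alone (0.0652), and with thinned libraries (0.12).

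Of the phosphatases, Pdp2 (NM_001024606; chr8:107115368-107120749, plus strand) was raised chiefly by ISO. It stood at 74.7, 85.9 and 74.1 CPM with Vehicle, at 220.4, 218 and 225 CPM with ISO and at 92.4, 95.8 and 92.3 CPM with SR-3420. The 3 groups did not overlap, and the ISO group lay far above the other two. The mean rose from 78.2 ± 6.62 to 221 ± 3.47 CPM (SD, n = 3) with ISO, a log2 fold change of 1.498 ± 0.073 (edgeR adjusted p = 3.19e-13). With SR-3420 it rose to 93.5 ± 1.99 CPM, a log2 fold change of 0.26 ± 0.07 (edgeR adjusted p = 0.00553), which missed the threshold with total counts alone (0.10, adjusted p = 0.40).

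In the presence of inhibitors, Pdp2 was read at 84.3, 92.7 and 75.9 CPM in Lipase Inh. + Vehicle, at 98.0, 101 and 107 CPM with ISO and at 75.6, 71.4 and 72.6 CPM with SR-3420. ISO libraries lay above, and SR-3420 libraries just below, all Lipase Inh. + Vehicle libraries. The rise with ISO was 0.28 ± 0.07 (log2, edgeR adjusted p = 0.00249) and was not called with total counts alone (0.05, adjusted p = 0.65). With SR-3420 the log2 fold change was -0.20 (95% confidence interval -0.35 to -0.04, edgeR adjusted p = 0.17). With inhibitors the ISO effect was smaller (log2 fold change of the interaction -1.22 ± 0.10, edgeR adjusted p = 6.92e-09). The SR-3420 effect was lower, at 0.26 without and -0.20 with inhibitors (interaction -0.46 ± 0.10, edgeR adjusted p = 0.0025). Inhibitors alone gave 0.11 (interval -0.05 to 0.26, edgeR adjusted p = 0.62).

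Pdp1 (NM_001098230; chr4:11885332-11893597, minus strand) moved the other way with ISO. It stood at 44.4, 42.8 and 47.4 CPM with Vehicle, at 36.1, 34.4 and 36.2 CPM with ISO and at 42.9, 40.7 and 43.3 CPM with SR-3420. All ISO libraries lay below all others without inhibitors, while SR-3420 and Vehicle libraries overlapped. Pdp1 fell by 0.33 on the log2 scale with ISO (SE 0.09, edgeR adjusted p = 0.00397) and gave -0.08 with SR-3420 (95% confidence interval -0.27 to 0.10), which passed with total counts alone (-0.24, adjusted p = 0.0394). With inhibitors it was 46.2, 43.5 and 51.3 CPM with Vehicle, 55.9, 49.7 and 54.1 CPM with ISO and 37.1, 45.8 and 47.9 CPM with SR-3420. Neither agent passed the test against Lipase Inh. + Vehicle, at 0.18 for ISO (interval -0.0037 to 0.36, edgeR adjusted p = 0.0872) and -0.11 for SR-3420 (interval -0.31 to 0.08). Without Lipase Inh. + Vehicle replicate 3 the ISO value was 0.25 and passed (adjusted p = 0.036). The ISO effect was higher with inhibitors than without by 0.51 ± 0.13 (log2, edgeR adjusted p = 0.00352).

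**Figure D2:**
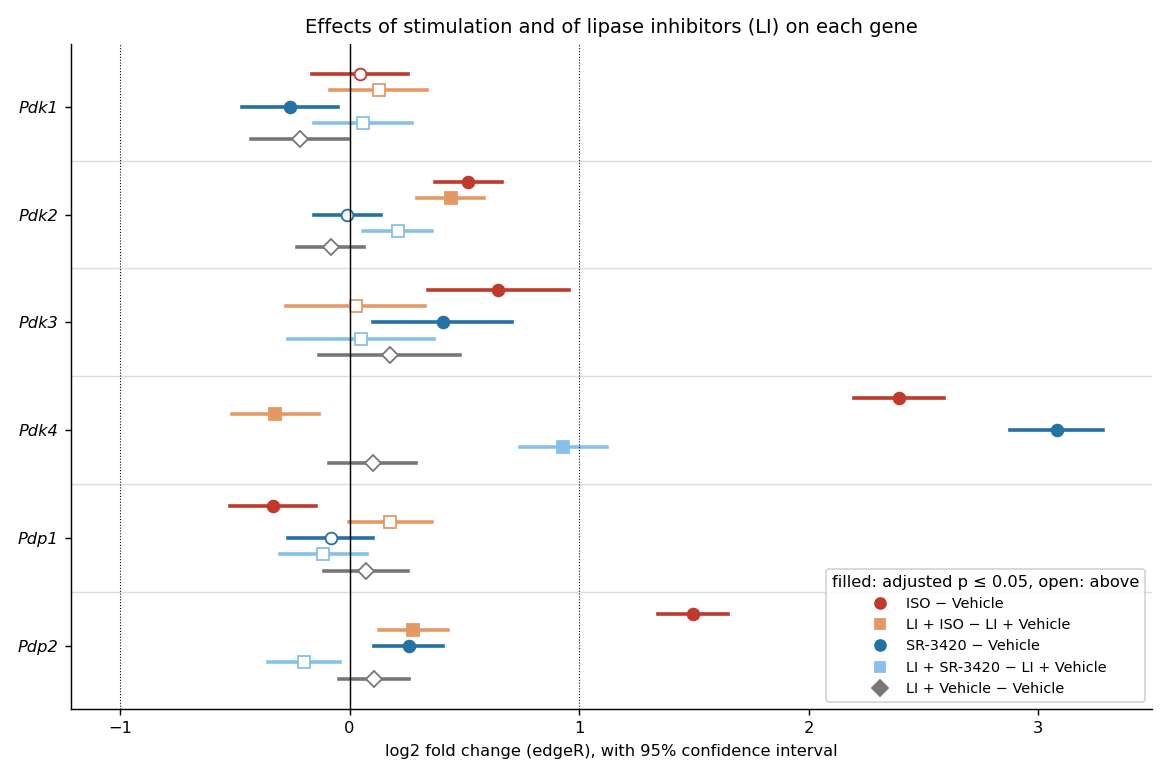
Log2 fold change of each gene (x axis) in 5 comparisons, with 95% confidence intervals as lines, filled symbols where the edgeR adjusted p is at most 0.05 and dotted lines at -1 and 1; LI stands for lipase inhibitors. Without inhibitors Pdk4 lies beyond 1 with both agents and Pdp2 with ISO, and with inhibitors all symbols lie between -0.32 and 0.93.

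Of these 6 genes, 4 passed the test upwards with ISO and 1 downwards, where 26.8% of all genes tested were higher and 25.0% lower. The 2 past 2-fold were Pdk4 and Pdp2, against 5.03% of all genes that rose past 2-fold. SR-3420 gave 3 higher and 1 lower, against 26.0% and 25.4% of all genes, and Pdk4 alone rose past 2-fold, as 3.97% of all genes did. Libraries of the treated and Vehicle groups did not overlap for 5 of the 6 with ISO (55.6% of all genes) and for 3 with SR-3420 (56.2%). Both contrasts used the same Vehicle libraries. The median log2 fold change of the 6 genes was 0.58 with ISO and 0.12 with SR-3420, where it was -0.02 over all genes in either case.

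Inhibitors alone changed 0 of 6 in the edgeR test, where 0.913% of all genes passed, 0.485% higher and 0.428% lower. With DESeq2 they also changed 0 of 6, where 115 of all 12156 genes were higher and 82 lower. At an unadjusted p below 0.05 there was 1 member, Pdk1, with a log2 fold change of -0.22 (interval -0.43 to -0.01, edgeR adjusted p = 0.43). Its libraries lay below those of Vehicle without overlap, which held for 15.4% of all genes. Under inhibitors, ISO raised 2 of the 6 (29.4% of all genes were higher) and lowered 1 (28.3% were lower), and the groups did not overlap for 3 (65.3%). SR-3420 under inhibitors raised 1, Pdk4, where 2.99% of all genes were higher and 1.36% lower, and the groups did not overlap for 2 (20.0%). The interaction with ISO passed for 1 gene upwards (14.9% of all genes) and for 3 downwards (16.6%), with Pdk4 and Pdp2 past 2-fold downwards (4.71%). The interaction with SR-3420 passed for 0 upwards (12.5% of all genes) and 2 downwards (14.8%), with Pdk4 past 2-fold (2.42%).

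The 2 agents were compared directly, as ISO minus SR-3420 at the same time. Without inhibitors, Pdp2 (log2 difference 1.24 ± 0.07, edgeR adjusted p = 2.77e-11), Pdk2 (0.53 ± 0.07, adjusted p = 8.04e-06) and Pdk1 (0.30 ± 0.10, adjusted p = 0.0273) were higher with ISO. Pdk4 (-0.69 ± 0.09, edgeR adjusted p = 7.38e-06) and Pdp1 (-0.25 ± 0.09, adjusted p = 0.041) were lower with ISO, and Pdk3 did not pass (0.24, 95% confidence interval -0.05 to 0.54). Thus 3 genes were higher, 2 lower and 1 (Pdp2) higher past 2-fold, against 15.8%, 13.9% and 1.23% of all genes, and the groups did not overlap for any of the 6 (44.0% of all genes). The Pdk1 call was lost without ISO replicate 1 (0.0631), ISO replicate 3 (0.12), SR-3420 replicate 1 (0.0672) or SR-3420 replicate 2 (0.115) and with total counts alone (0.337), and the Pdp1 call without ISO replicates 1 (0.0787), 2 (0.115) or 3 (0.0611), SR-3420 replicates 1 (0.099) or 3 (0.115) and with no filter on low counts (0.0545). The Pdk4, Pdp2 and Pdk2 calls held in each of these settings.

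With the lipases inhibited, Pdp2 (0.48 ± 0.08, edgeR adjusted p = 1.31e-05), Pdp1 (0.29 ± 0.09, adjusted p = 0.00912) and Pdk2 (0.23 ± 0.07, adjusted p = 0.00849) were higher with ISO than with SR-3420, and Pdk4 (-1.26 ± 0.09, adjusted p = 1.72e-10) was lower. Of all genes, 28.6% were higher, 28.3% lower and 7.85% lower past 2-fold, as Pdk4 was, and the groups did not overlap for 4 members (60.9% of all genes). Pdp1 thus differed in opposite directions without and with inhibitors. Its call under inhibitors was lost without Lipase Inh. + SR-3420 replicate 1 (0.0978), with total counts alone (0.154) and with thinned libraries (0.0997), and that of Pdk2 without Lipase Inh. + SR-3420 replicate 3 (0.0654), with total counts alone (0.305) and with thinned libraries (0.114). Pdk1 (0.07, interval -0.14 to 0.28) and Pdk3 (-0.02, interval -0.34 to 0.30) did not pass.

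To compare the genes with one another, levels were divided by the length that the authors counted, giving CPM per kilobase. In Vehicle, Pdk4 stood at 158 ± 2.44 (SD, n = 3) CPM per kilobase, Pdk1 at 94.9 ± 5.85, Pdk2 at 44.3 ± 2.83, Pdp2 at 22.4 ± 1.89, Pdp1 at 10.6 ± 0.55 and Pdk3 at 5.09 ± 0.87. With ISO, Pdk4 reached 829 ± 47.6 CPM per kilobase, and Pdp2 (63.1 ± 0.99) and Pdk2 (63.5 ± 2.89) stood at like levels. With SR-3420, Pdk4 reached 1335 ± 19.7 CPM per kilobase and Pdp2 26.7 ± 0.57. Pdk4 therefore made up 52.3% ± 1.61 of the summed kinase level with Vehicle, 83.0% ± 1.90 with ISO and 91.1% ± 0.60 with SR-3420. In the groups with inhibitors its share was 56.6% ± 1.76 with Vehicle, 46.9% ± 2.18 with ISO and 69.9% ± 0.85 with SR-3420. Pdp2 made up 67.8% ± 2.76 of the summed phosphatase level with Vehicle, 88.3% ± 0.18 with ISO and 72.8% ± 1.08 with SR-3420, and between 67.1% and 69.8% in the groups with inhibitors.

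The summed kinase level was 302 ± 7.23 CPM per kilobase with Vehicle, 999 ± 34.3 with ISO and 1465 ± 13.3 with SR-3420, while the phosphatases summed to 33.0 ± 1.502, 71.6 ± 1.20 and 36.7 ± 0.24. With ISO the sums were 3.31-fold and 2.17-fold those of Vehicle, whereas with SR-3420 the kinase sum was 4.85-fold and the phosphatase sum 1.11-fold that of Vehicle. The ratio of summed kinase to summed phosphatase RNA was 9.64, 8.47 and 9.44 in the Vehicle libraries, 13.9, 14.7 and 13.3 with ISO, and 40.4, 39.7 and 39.6 with SR-3420. No library of one group overlapped another. With inhibitors the ratio was 8.35, 7.84 and 9.31 with Vehicle, 6.95, 6.16 and 7.47 with ISO, below all of these, and 15.3, 13.96 and 15.1 with SR-3420, above them. Leaving Pdk4 out, the remaining kinases summed to 144 ± 7.98 CPM per kilobase with Vehicle, 169 ± 13.2 with ISO and 130 ± 7.86 with SR-3420. These sums and ratios describe RNA and were not tested.

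**Figure D3:**
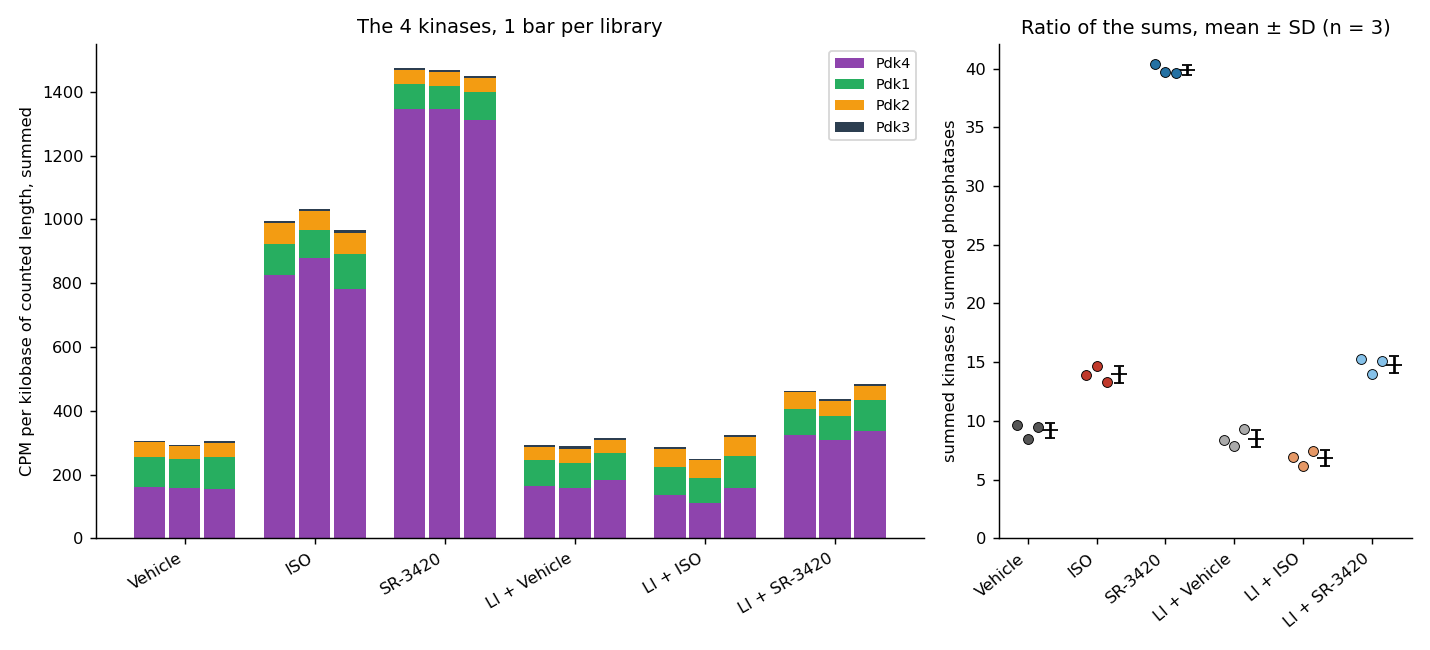
Left, level of the 4 kinases in CPM per kilobase, stacked in 1 bar per library and ordered by group; right, ratio of the summed kinase to the summed phosphatase level in each library, with mean ± SD (n = 3). Pdk4 makes up 81.1% or more of each ISO and SR-3420 bar without inhibitors and 70.9% or less of all others. The ratio is 39.6 or more in the SR-3420 libraries without inhibitors and 15.3 or less in all others.

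The list for the complex and the entry of pyruvate held the catalytic subunits Pdha1, Pdhb, Dlat and Dld, the binding subunit Pdhx, the phosphatase regulator Pdpr and the mitochondrial pyruvate carriers Mpc1 and Mpc2, and all 8 were tested. Of these, Pdha1 is the subunit that the kinases and phosphatases act on. With ISO, 5 of 8 were higher and 0 lower, where 26.8% of all genes were higher and 25.0% lower. With total counts alone 0 were higher and 2 lower, where 1496 of all 12156 genes were higher and 6004 lower. The direction with ISO thus rests on the scaling. With SR-3420, 0 were higher and 4 lower (25.4% of all genes were lower). Under inhibitors, ISO raised 7 of 8, where 29.4% of all genes were higher, and SR-3420 changed 0. With total counts alone ISO raised 6 there, where 1973 of all 12156 genes were higher. All 8 were higher with ISO than with SR-3420 in both settings of the lipases, where 15.8% and 28.6% of all genes were higher. With total counts alone 7 of 8 were higher without inhibitors and 6 of 8 with them. Of all genes that total counts alone called in either direction, 20.3% and 37% were higher in these 2 comparisons. Pdha1, named here for its role with its values known, stood at 789 ± 16.4 CPM with Vehicle, 927 ± 24.6 with ISO and 710 ± 11.2 with SR-3420. With inhibitors it stood at 800 ± 7.97, 1102 ± 23.6 and 758 ± 8.73 CPM. No gene of this list passed 2-fold in any comparison.

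In the list of lipoylation enzymes and the branched-chain complex with its own kinase Bckdk and phosphatase Ppm1k, 0 of 8 were higher and 5 lower with SR-3420, where 26.0% of all genes were higher and 25.4% lower. With ISO 2 were higher and 5 lower, against 26.8% and 25.0% of all genes. With total counts alone 0 were higher and 5 lower with ISO, against 1496 and 6004 of all 12156 genes. Without Vehicle replicate 1, without ISO replicate 2 or with thinned libraries 3 were lower with ISO. Bckdk fell by 0.26 with ISO and by 0.52 with SR-3420, and Ppm1k by 0.28 and 0.38 (log2). In the list of other fates of pyruvate, 6 of 11 tested were higher and 1 lower with ISO, where 26.8% and 25.0% of all genes were. With SR-3420 they were 3 and 3 of 11, near the 26.0% and 25.4% of all genes. With total counts alone these were 4 and 4 with ISO, against 1496 and 6004 of all 12156 genes. They were 3 and 6 with SR-3420, against 1947 and 4369 of all genes. Pck1, which makes phosphoenolpyruvate for glyceroneogenesis, had log2 fold changes of 4.18 with ISO and 3.10 with SR-3420. The monocarboxylate transporter gene Slc16a1 had 1.51 and 1.15. The transaminase gene Got1 rose by 1.62 with ISO. Lactate dehydrogenase Ldha was the only gene of that list called with inhibitors alone, at -0.45, a call that was lost without Vehicle replicate 1, Lipase Inh. + Vehicle replicate 1 or Lipase Inh. + Vehicle replicate 3, with total counts alone and with only these 2 groups in the fit. It rose by 1.36 with ISO under inhibitors.

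Of 19 tested genes listed for fatty acid use, many of them known to respond to PPARs, 11 were higher and 1 lower with ISO. All genes gave 26.8% and 25.0%. Total counts alone gave 8 and 3 of the list, against 1496 and 6004 of all 12156 genes. With SR-3420, 11 were higher and 2 lower, against 26.0% and 25.4%. Rises past 2-fold with ISO included those of the lipid droplet coat gene Plin2 (2.49), the acyl-CoA synthetase gene Acsl1 (2.00) and the acylcarnitine carrier gene Slc25a20 (1.06). With SR-3420 they included Plin2 (2.61), Acsl1 (1.43) and the lipase inhibitor gene Angptl4 (1.39). Angptl4 was the 1 gene of the list that was lower with ISO (-0.41, edgeR adjusted p = 0.0187), a call lost without Vehicle replicate 1, Vehicle replicate 2 or ISO replicate 3, and it was lower with ISO under inhibitors (-1.60). With inhibitors, ISO left 10 higher and 5 lower, against 29.4% and 28.3% of all genes. Total counts alone gave 4 and 6 here, against 1973 and 5119 of all 12156 genes. The interaction was negative and called for 8 of 19 genes with ISO (16.6% of all genes) and for 9 of 19 with SR-3420 (14.8%), as it was for Pdk4 and Pdp2. Plin2 had the largest such difference with either agent, at -3.13 with ISO and -2.09 with SR-3420. Not all of the list did so: the interaction of Cpt1a, which admits fatty acids to mitochondria, was 0.65 with ISO.

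Hypoxia-inducible factor targets were listed because Pdk1 is one. With ISO, 18 of 20 were higher and 1 lower, against 26.8% and 25.0% of all genes. With total counts alone they were 9 and 2, against 1496 and 6004 of all 12156 genes. Among the higher genes were Gapdh (1.60), the glucose transporter gene Slc2a1 (1.54), Pfkfb3 (1.34) and the adenylate kinase gene Ak4 (1.33), while Pdk1 itself did not pass. With SR-3420, 8 were higher and 0 lower, against 26.0% and 25.4% of all genes, and Pdk1 was not among the higher genes. Total counts alone gave 7 and 2 with SR-3420, against 1947 and 4369 of all 12156 genes. Gapdh has near-identical pseudogenes, so its counts are uncertain. Inhibitors alone lowered 12 of 20 and raised 0, where 0.428% of all genes were lower, with Ak4 (-1.51) and the prolyl hydroxylase gene Egln3 (-1.20) past 2-fold. The count of 12 dropped to 6 without Vehicle replicate 1 or Lipase Inh. + Vehicle replicate 1, and to 7 without Lipase Inh. + Vehicle replicate 3 or with only these 2 groups in the fit. Pdk1 had the same sign there, at -0.22, and missed the threshold.

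The list of factors and coregulators reported to act on Pdk4 or Pdk1 also held Irs2, a signalling gene. In this list 11 of 20 tested were higher with each agent, where all genes gave 26.8% for ISO and 26.0% for SR-3420. The genes lower were 4 with ISO and 5 with SR-3420, no larger a share than the 25.0% and 25.4% of all genes. With total counts alone 7 were lower with ISO, where 6004 of all 12156 genes were lower. The orphan receptor gene Nr4a1 had log2 fold changes of 4.89 with ISO and 3.05 with SR-3420. Nr4a3 went from 0.157 CPM with Vehicle to 119 CPM with ISO and 1.23 CPM with SR-3420. Ppargc1a, a coactivator of PPARs and ERRs, rose by 3.83 with ISO, the insulin receptor substrate gene Irs2 by 2.405 with ISO and 1.54 with SR-3420, and Ppara by 1.498 with SR-3420. The 4 genes lower with ISO were Rxra (-1.17), which encodes the partner of PPARs, Klf15 (-1.16), Stat5a (-1.18) and Stat5b (-1.02), and Klf15 was also lower past 2-fold with SR-3420 (-1.31). These genes were named after their values were seen. With ISO under inhibitors 9 were higher and 8 lower, against 29.4% and 28.3% of all genes. Nr4a3 stood at 8.78, going from 0.268 CPM in Lipase Inh. + Vehicle to 116 CPM in Lipase Inh. + ISO. Nr4a1 stood at 2.34, Ppargc1a at 1.85 and the ERRα gene Esrra at 1.32. Rxra stood at -1.485, Klf15 at -0.76, Ppara at -0.63, Foxo3 and Stat5b at -0.54, Stat5a at -0.47, Ppargc1b at -0.44 and Nr3c1 at -0.29. The part of any of these in the change of Pdk4 was not tested.

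**Figure D4:**
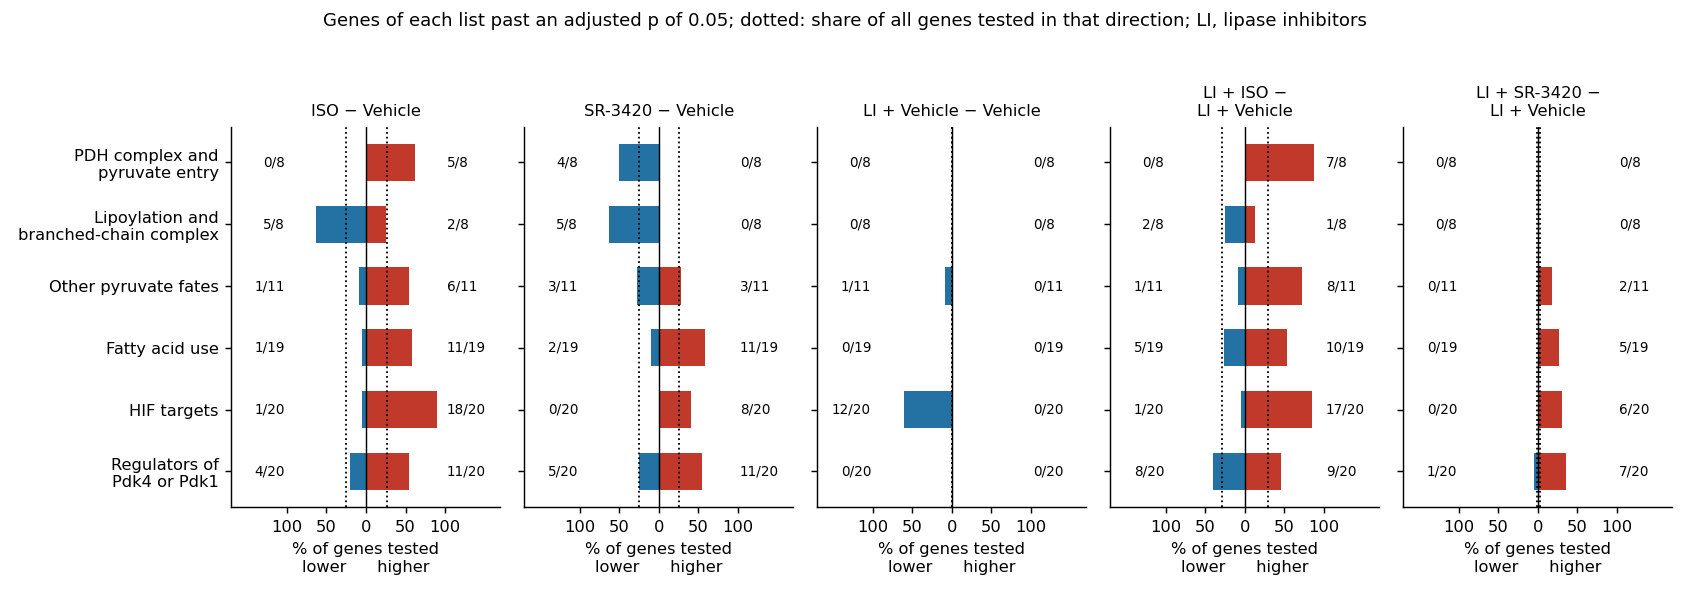
Percent of the genes tested in each list that were higher (right, red) or lower (left, blue) at an edgeR adjusted p of at most 0.05, in 5 comparisons, with the counts printed at the sides and the share of all 12156 genes dotted; LI stands for lipase inhibitors. Hypoxia-inducible factor targets are lower with inhibitors alone in 12 of 20, and the genes of the complex and pyruvate entry are higher with ISO in 5 of 8 (0 of 8 with total counts alone) and lower with SR-3420 in 4 of 8.

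Genes with the most similar pattern were sought by Pearson correlation of log2 CPM over the 18 libraries, which share 6 groups, so that r is given as a description. For Pdk4 they were Ppp1r15a (r = 0.992) and Ppp1r15b (0.989), which encode partners of the phosphatase that acts on eIF2α, and Spty2d1 (0.984). Ppp1r15a had log2 fold changes of 1.67 with ISO and 2.37 with SR-3420, and of -0.04 and 0.59 with inhibitors, where Pdk4 had 2.39, 3.08, -0.32 and 0.93. For Pdp2 they were the chromatin gene Smchd1 (r = 0.974), Elmod2 (0.953) and the fatty acid binding protein gene Fabp5 (0.943). Smchd1 had 2.53 with ISO and 0.74 with SR-3420, and 0.94 and 0.09 with inhibitors, where Pdp2 had 1.498, 0.26, 0.28 and -0.20. For Pdk2 they were the carnitine acetyltransferase gene Crat (r = 0.928), the tricarboxylic acid cycle gene Idh3a (0.906) and Etfdh (0.904), which passes electrons from fatty acid oxidation to the respiratory chain. The closest to Pdk3 were the peroxisome gene Pex3 (r = 0.924), Echdc1 (0.883) and Pnpla8 (0.876). Sugt1 (0.884), Frmd8 (0.855) and Mterf2 (0.853) were closest to Pdp1, and Arl6ip1 (0.876), Adtrp (0.859) and H2-D1 (0.853) to Pdk1. Between members, r was 0.78 for Pdk2 and Pdp2, 0.70 for Pdk3 and Pdp2, 0.47 for Pdk4 and Pdp2, 0.16 for Pdk4 and Pdk2, and -0.66 for Pdk4 and Pdp1.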

How the data were processed

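RNA-seq was analysed for 18 samples of differentiated BAT-LgT brown adipocytes, 3 in each of 6 groups taken from the sample titles. The authors prepared TruSeq libraries, aligned reads to mm9 with STAR 2.4.2a, summarised tags in HOMER and used iRNA-seq to count them for each RefSeq gene. Raw counts of 20295 genes were deposited, and 0 rows lacked a gene name. Whether counting used strand is not given in the sources used here. The study speaks of independent experiments with technical duplicates, and how the duplicates enter these libraries is not given. Nothing else says how samples of a group were separate, so p-values measure the spread between these samples.

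Genes were kept by filterByExpr (minimum count 10, minimum total 15), scaled by TMM and fitted with edgeR 4.0.16 (glmQLFit and glmQLFTest, R 4.3.3) with 1 mean for each group, using all 18 samples. Contrasts gave the effect of each agent without and with inhibitors, the effect of inhibitors, both interactions and the difference between agents. Benjamini-Hochberg adjustment covered 12156 genes, and a gene was called at an adjusted p of at most 0.05. The standard error was taken from the log2 fold change and its F value. The code was tested on simulated data. Alternatives were DESeq2 1.42.0, RLE factors, total counts alone, no filter and a stricter one, only the groups of the contrast, thinned libraries, the replicate number as a block, and leaving out each library. Pdk3 had the fewest reads and the largest standard errors of the members.

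The named genes were the 6 members, the 3 genes closest to each by correlation (average log2 CPM of at least 3, prior count 2), and from each list those called with a log2 fold change of at least 1 in size, at most 4 per contrast. Bckdk, Ppm1k, Pdha1, Cpt1a, Ldha with inhibitors alone, Angptl4 with ISO and the regulators that were lower were named outside this rule, after their values were seen. Members and lists were chosen with earlier results of these data known. Me3, Esrrg and Nr0b2 did not pass the filter, and some genes that the rule would name are not reported here. Promoter windows came from RefSeq GRCm38.p6 and were searched for exact matches to 8 motifs.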

Additional observations from a re-analysis of the deposited data

Results flagged for a closer look

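The effect of ISO differed between cells with and without lipase inhibitors, by the test of the interaction in edgeR, for 4 of the 6 genes, 1 upwards and 3 downwards, where 14.9% of all genes passed upwards and 16.6% downwards. For Pdk4 the log2 fold change of the interaction was -2.72 (adjusted p = 2.44e-12), with all Lipase Inh. + ISO libraries below and all ISO libraries above their own vehicle group. Pdp2 had -1.22 (adjusted p = 6.92e-09). For Pdk3 it was -0.62 (adjusted p = 0.0256). Pdp1 was the exception in direction, at 0.51 (adjusted p = 0.00352). The effect of SR-3420 differed in the same test (12.5% of all genes upwards and 14.8% downwards) for Pdk4 at -2.15 (adjusted p = 1.86e-10) and for Pdp2 at -0.46 (adjusted p = 0.0025). Groups of 3 samples are too small for the search for single libraries far from the rest, which was not run.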

How the results depend on the processing

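No called member changed sign under any alternative. Over all members and contrasts, 414 values under other settings kept their side of the threshold, 4 newly passed and 13 no longer passed, and on leaving out 1 library these were 368, 4 and 24. Same-numbered samples share only a number: their deviations correlated by 0.11 on average (-0.0118 for number 1), and 12 of 18 samples correlated best with their own number. With the replicate block the inhibitors alone changed 1 member (Pdk1, edgeR adjusted p = 0.0372) in place of 0. Of all 12156 genes, 147 were then higher and 122 lower, in place of 59 and 52. ISO under inhibitors changed 4 members in place of 3 (Pdp1 added). All genes gave 3805 higher and 3694 lower, in place of 3574 and 3440. The interaction with SR-3420 passed for 3 members in place of 2 (Pdk1 added, edgeR adjusted p = 0.00353). All genes gave 1949 higher and 2177 lower, in place of 1524 and 1797. The block thus added calls among all genes too. ISO against SR-3420 under inhibitors called 2 members in place of 4 with total counts alone and 2 with thinned libraries. Leaving out 1 library, the members called ranged from 2 to 3 for SR-3420 (4 with all libraries), from 3 to 4 for ISO against SR-3420 (5), from 3 to 4 for that comparison under inhibitors (4), from 3 to 4 for ISO under inhibitors (3) and for its interaction (4), from 2 to 3 for the interaction with SR-3420 (2), and stayed at 5 for ISO, 0 for inhibitors and 1 for SR-3420 under inhibitors. SR-3420 called 2 without Vehicle replicate 1 or SR-3420 replicate 1, and ISO against SR-3420 called 3 without ISO replicate 1, ISO replicate 3 or SR-3420 replicate 1. The cause was not tested in any of these. Pdk3 had the fewest reads of the members, with 39 in the shallowest library.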
